A study of Mus musculus with 69 samples.

Results

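Oxidative phosphorylation genes were followed across 69 libraries of mouse prostate organoids, which are epithelial structures grown from prostate cells in a matrix gel or in suspension. Members were taken by name: nuclear genes whose symbols start with Nduf followed by a, b, c, s or v, with Uqcr, with Cox followed by a number from 4 to 8 or with Atp5, the 4 Sdh subunit genes, and the genes of the mitochondrial genome named mt-Nd, mt-Co, mt-Cytb or mt-Atp. The rule found 119 names (106 nuclear and 13 mitochondrial) among 20717 gene names in the 3 deposited tables. By role these were 37 nuclear complex I subunits, 8 complex I assembly factors, 4 complex II, 8 complex III, 14 complex IV and 17 complex V genes, the pair Ndufa4 and Ndufa4l2, 12 pseudogene or retrocopy names, 4 other near copies of a member, and 7, 1, 3 and 2 mitochondrial genes of complexes I, III, IV and V. GENCODE M21, a gene annotation, types the 4 near copies as processed pseudogenes. Near copies and pseudogene names count as nuclear members below unless said to be left out. Each table held all 13 mitochondrial members and 102, 102 and 104 nuclear ones. All of them had enough counts to be tested except Cox6a2 in the first table, which left 101 nuclear members there.

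The 23 groups had 3 libraries each of polyA RNA. The first table compared TKOM organoids on day 30 of suspension culture with TKOM organoids in Matrigel, a basement membrane gel, for which no day is given. The second held NEPC-1, NEPC-2 and NEPC-3, called lines here and named for neuroendocrine prostate cancer, and PRAD organoids, named for prostate adenocarcinoma, on day 42 of COMBO treatment and on day 8 of COMBO, YAPi_NOTCHi, ARi_YAPi, ARi_NOTCHi, NOTCHi, YAPi, ARi or DMSO, the vehicle. The third held TKO, PtP and WT (wild-type) organoids, each on day 8 of COMBO, YAPi_NOTCHi or DMSO. The labels do not give the genes altered in TKOM, PRAD, NEPC, PtP or TKO organoids, nor the compounds behind ARi, YAPi, NOTCHi and COMBO. The titles of the NEPC libraries give no day and no agent, and the headers of their columns begin with TKONE. Each NEPC name is 1 line, and PRAD, TKOM, WT, PtP and TKO are each 1 source as far as the labels say. Differences between genotypes and differences between single organoid sources thus cannot be told apart. The labels do not say that libraries of a group came from separate cultures, so p-values measure the spread between libraries, which may be technical.

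The members other than pseudogene names and near copies build the machinery of respiration. Complexes I and II pass electrons from NADH and succinate to coenzyme Q, complex III passes them on to cytochrome c and complex IV to oxygen, and complex V uses the proton gradient made along the way to form ATP. Most subunits are encoded in the nucleus and imported, while a small core is encoded and transcribed inside the organelle from a separate circular genome, so that both sets must meet in the same complexes. Complex II alone among them has no mitochondrially encoded subunit. Prostate epithelium is known for secreting citrate, which limits its oxidation in the citrate cycle, and prostate adenocarcinoma is known for oxidising it again.

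Library totals were 31459485 to 40457128 counts in the first table, 22798858 to 77787396 in the second and 18627674 to 92271275 in the third. Values are counts relative to the library total, in the usual CPM unit. Epithelial markers (Epcam, Cdh1, Krt8, Krt18 and Krt19) summed to means of 1777 to 7841 CPM per group, and immune, endothelial and muscle markers to at most 1.81, 12.8 and 24.7 CPM. Epithelial markers were thus present in every group, but at unlike levels. In PRAD organoids their mean sum was 2384 CPM with COMBO on day 8, 1842 with ARi_NOTCHi, 7197 with YAPi and 6247 with DMSO. With COMBO it was 2480, 2851 and 1777 CPM in TKO, PtP and WT, against 7300, 7841 and 5664 CPM with DMSO. The part of these differences in the results was not tested. Of 6 fibroblast markers Dcn and Pdgfra could be followed (Dcn alone in the first table), and their sum, nearly all of it Dcn, had group means of 1019 CPM with ARi_NOTCHi, 357 with NOTCHi, 304 with ARi and 84.2 with DMSO in PRAD organoids, and of 346 CPM with YAPi_NOTCHi and 6.07 with DMSO in WT organoids. The part of such cells or of their transcripts in the results was not tested. In the labels, 1 PRAD YAPi library (replicate 1) has a description that ends in another code than those of the other 35 libraries of its table. It also has the highest total of that table, 77787396 counts. Without it 2 nuclear members rose and 91 fell with YAPi, and 12 mitochondrial members rose.

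The promoters of 4 members are shown because they hold the one motif of 3 searched that stood far more often in members than in promoters at large, and because they serve 4 different complexes (III, I, IV and V). RefSeq promoter windows (GRCm38.p6, from 250 bases before to 50 after the gene start) were matched for 75 members, 5 of which have 2 windows, so that they number 80. The palindrome GCGCATGCGC, the motif of nuclear respiratory factor 1 (NRF1, a transcription factor known to regulate respiratory chain genes), which reads the same on both strands, stood in 7 of the 80 member windows (8.75%) and in 319 of all 32851 windows (0.971%). It stood in Uqcrc1, Ndufa11, Cox6a1, Atp5k, Atp5g2, Ndufaf4 and Ndufaf5. The core CCGGAAGT of the GABP and ETS factors stood in 5 member windows (6.25%) and 3.89% of all windows. The hypoxia response core ACGTG stood in 19 member windows (23.8%) and 19.6% of all windows. Both cores were searched on both strands, and none of the 3 motifs contains another. A match describes the letters and says nothing of binding. The 4 windows run 5′ to 3′ along the strand of the gene, with the palindrome in capitals. The Uqcrc1 window is chr9:108936398-108936697 on the plus strand, the Ndufa11 window chr17:56717512-56717811 on the plus strand, the Cox6a1 window chr5:115348909-115349208 on the minus strand, and the Atp5k window chr5:108434350-108434649 on the minus strand.
Uqcrc1: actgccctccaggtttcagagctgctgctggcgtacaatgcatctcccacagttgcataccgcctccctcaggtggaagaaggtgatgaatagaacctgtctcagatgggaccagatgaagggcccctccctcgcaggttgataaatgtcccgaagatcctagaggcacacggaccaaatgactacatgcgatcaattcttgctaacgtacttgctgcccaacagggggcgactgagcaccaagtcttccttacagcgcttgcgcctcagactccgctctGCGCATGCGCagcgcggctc
Ndufa11: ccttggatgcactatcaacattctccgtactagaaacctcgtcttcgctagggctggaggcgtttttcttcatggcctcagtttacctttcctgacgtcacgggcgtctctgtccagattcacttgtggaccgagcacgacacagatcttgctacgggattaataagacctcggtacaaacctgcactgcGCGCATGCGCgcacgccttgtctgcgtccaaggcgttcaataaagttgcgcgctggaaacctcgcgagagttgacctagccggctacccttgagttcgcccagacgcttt
Cox6a1: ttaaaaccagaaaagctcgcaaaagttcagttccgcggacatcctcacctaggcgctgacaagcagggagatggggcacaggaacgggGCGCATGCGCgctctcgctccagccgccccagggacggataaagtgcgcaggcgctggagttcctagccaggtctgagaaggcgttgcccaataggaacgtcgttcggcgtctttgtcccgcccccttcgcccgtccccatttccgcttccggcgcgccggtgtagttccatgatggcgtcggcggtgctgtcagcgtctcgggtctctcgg
Atp5k: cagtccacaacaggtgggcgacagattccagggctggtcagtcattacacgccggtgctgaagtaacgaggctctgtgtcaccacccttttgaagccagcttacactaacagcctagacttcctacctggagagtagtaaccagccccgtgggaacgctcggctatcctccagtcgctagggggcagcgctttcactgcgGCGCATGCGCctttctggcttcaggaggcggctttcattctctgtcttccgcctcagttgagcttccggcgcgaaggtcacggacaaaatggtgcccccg

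The mitochondrial and nuclear sets moved apart in most treated groups. Levels are CPM after TMM scaling within each table, a scaling that sets the bulk of genes to the same level in all libraries, and levels of different tables are given side by side without a test. Summed over the 13 mitochondrial members, PRAD organoids held 37459.6 ± 594 CPM with COMBO on day 8, 32539 ± 1034 with YAPi_NOTCHi, 33722 ± 473 with ARi_YAPi, 38907 ± 1147 with ARi_NOTCHi, 27344 ± 262 with NOTCHi, 22729 ± 1282 with YAPi, 22849 ± 49.1 with ARi and 13738 ± 501 with DMSO (SD, n = 3 each). Each of the 7 treated groups lay above DMSO with no overlap between libraries. In the same libraries the nuclear members summed to 7742 ± 36.8 CPM with COMBO, 8273 ± 159 with YAPi_NOTCHi, 9572 ± 92.1 with ARi_YAPi, 8566 ± 14.7 with ARi_NOTCHi, 11116 ± 105 with NOTCHi, 9741 ± 264 with YAPi, 10799 ± 15.6 with ARi and 13523 ± 82.6 with DMSO. All 7 lay below DMSO, again with no overlap. The ratio of the mitochondrial to the nuclear sum was 4.84 ± 0.0934 with COMBO on day 8 and 1.02 ± 0.0431 with DMSO. A sum has no test of its own here, since 3 libraries against 3 cannot give an exact two-sided permutation p below 0.1.

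In the third table the mitochondrial sum was 44707 ± 922 CPM in TKO, 63375 ± 1313 in PtP and 55659.9 ± 969.6 in WT organoids with YAPi_NOTCHi, against 13688 ± 291, 16832 ± 221 and 9881 ± 31.5 in TKO, PtP and WT organoids with DMSO. With COMBO it was 27185, 42944 and 48447 CPM in TKO, PtP and WT. The nuclear sum did not follow the PRAD pattern in all 3 genotypes. With YAPi_NOTCHi it was 13187 ± 168 CPM in TKO, 12454 ± 299.5 in PtP and 9982 ± 215 in WT, against 11196 ± 73.5, 11998 ± 267 and 12106 ± 176 with DMSO. TKO libraries lay above their DMSO libraries, PtP libraries lay above theirs, and WT libraries lay below theirs, but per raw library total, without TMM scaling, the WT mean was 10352 CPM with YAPi_NOTCHi and 10096 CPM with DMSO. With COMBO the nuclear sum was 11083, 11073 and 7886 CPM in TKO, PtP and WT. Those libraries overlapped with DMSO in TKO and lay below it in PtP and WT, but per raw library total the means were 12803 CPM with COMBO and 10213 CPM with DMSO in TKO, and 11692 CPM with COMBO and 10529 CPM with DMSO in PtP.

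Among late PRAD and NEPC groups the mitochondrial sum was 23547, 21124 and 21208 CPM on day 42 of COMBO, 12926, 12439.8 and 12826 in NEPC-1, 16918, 18014 and 18136 in NEPC-2 and 14431, 15022 and 15746 in NEPC-3. NEPC-2, NEPC-3 and day 42 of COMBO lay above PRAD DMSO, and NEPC-1 lay below it, but per raw library total the mean was 14421 CPM in NEPC-1 and 12708 CPM in PRAD DMSO. In TKOM organoids the mitochondrial sum was 11460.2, 11629 and 11676 CPM in suspension and 17285, 17074 and 17803 in Matrigel, while the nuclear sum was 13866, 13968 and 13669.5 in suspension and 12109.9, 11837 and 11758 in Matrigel. The suspension libraries lay below the Matrigel libraries in the first sum and above them in the second, with no overlap in either. All libraries are bulk RNA, in which fewer cells of a type and less RNA per cell cannot be told apart.

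**Figure D1:**
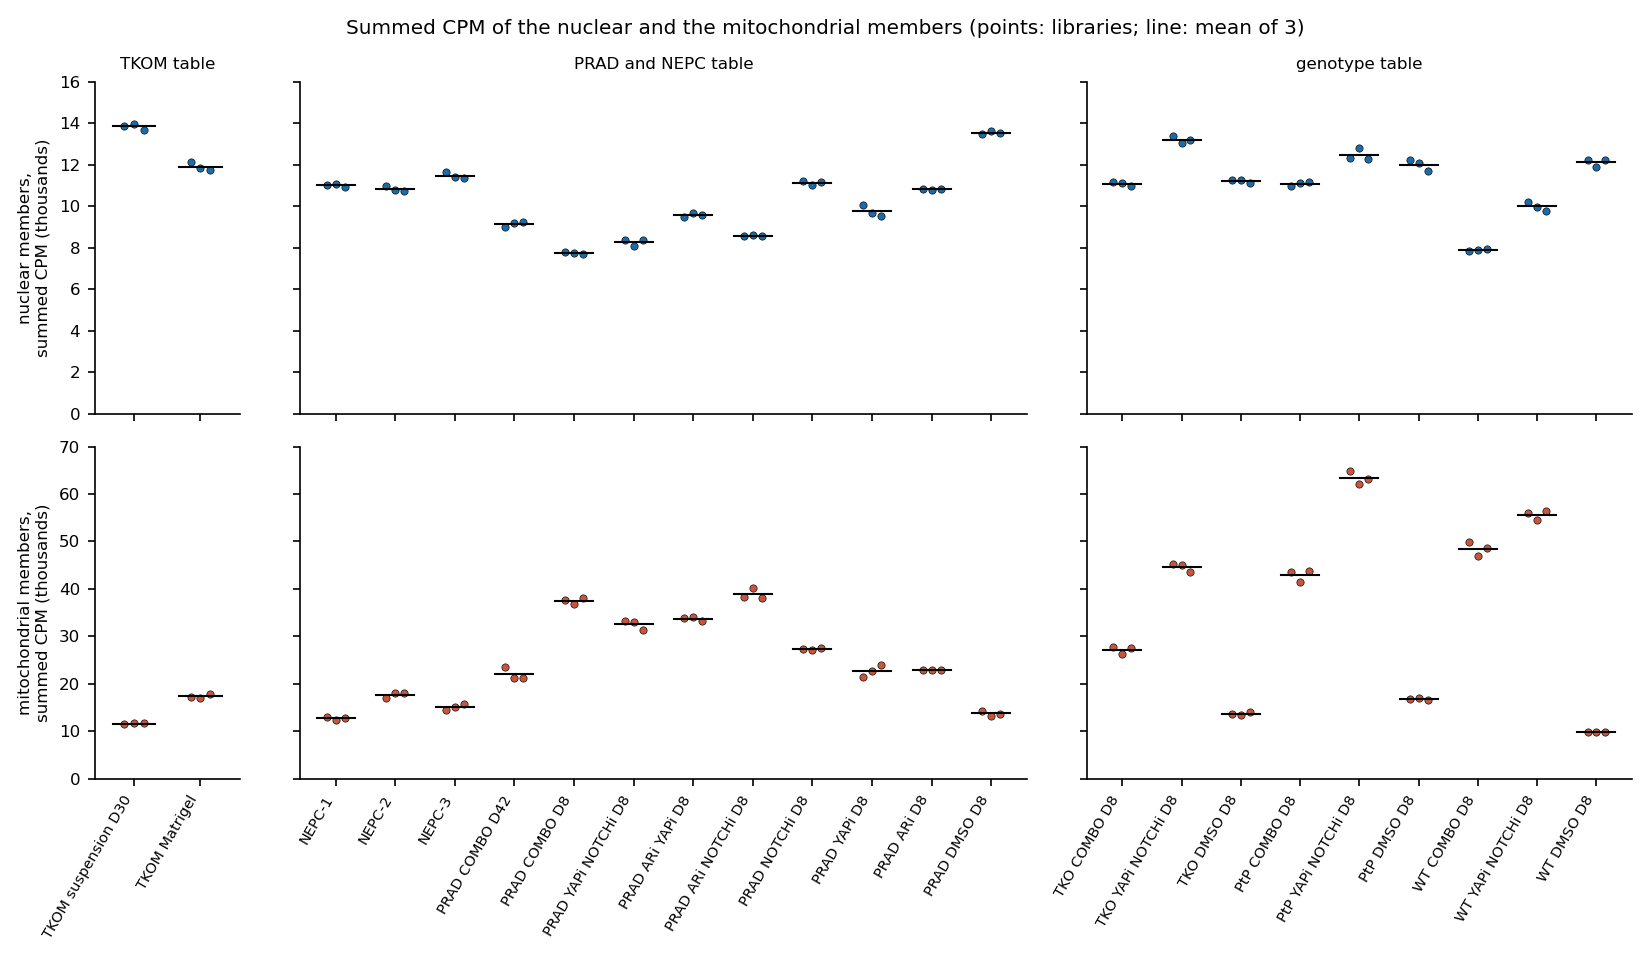
Summed CPM of the nuclear members (upper) and of the 13 mitochondrial members (lower) in each library of the 23 groups, with a horizontal bar at the group mean. Mitochondrial sums stand above DMSO in every treated day 8 group, while nuclear sums stand below DMSO in the PRAD groups and above it in TKO with YAPi_NOTCHi.

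PRAD organoids with 1 agent had lower levels of most nuclear members and higher levels of nearly all mitochondrial ones. All PRAD comparisons with DMSO share the same 3 DMSO libraries, and rose and fell are used for an adjusted p under 0.05 in edgeR's quasi-likelihood test over all genes of a table. Values in brackets after a gene, and the size of a rise or fall, are log2 fold changes, with the standard error after ±. With ARi, 2 of 102 nuclear members rose and 87 fell (median log2 fold change -0.36), and 13 of 13 mitochondrial members rose and 0 fell (median 0.91), where 27.1% of all 18483 genes tested rose and 27.4% fell (median 0, the value of genes at 0 in both groups). With YAPi, 3 nuclear members rose and 91 fell (median -0.48), and 12 mitochondrial members rose and 0 fell (median 0.72), where 35% of all 18483 genes tested rose and 26.9% fell (median 0.064). With NOTCHi, 5 nuclear members rose and 79 fell (median -0.29), and 13 mitochondrial members rose and 0 fell (median 1.12), where 26% of all 18483 genes tested rose and 28% fell (median -0.0064).

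With 2 agents or COMBO most nuclear members fell again. With ARi_NOTCHi, 1 nuclear member rose and 94 fell (median -0.67), and 13 mitochondrial members rose and 0 fell (median 1.58), where 35.1% and 33.3% of all genes rose and fell. With ARi_YAPi, 4 nuclear members rose and 89 fell (median -0.50), and 13 mitochondrial members rose and 0 fell (median 1.47), where 39.7% and 30.5% of all genes rose and fell. With YAPi_NOTCHi, 1 nuclear member rose (2 without YAPi_NOTCHi replicate 1 or 3) and 95 fell (median -0.65), and 12 mitochondrial members rose and 0 fell (median 1.35), where 40.2% and 35.1% of all genes rose and fell. With COMBO on day 8, 2 nuclear members rose and 95 fell (median -0.72), and 13 mitochondrial members rose and 0 fell (median 1.5), where 41.1% and 38.7% of all genes rose and fell (median 0.026). At a change of at least 1.5-fold, 72 nuclear members fell with COMBO, where 24.8% of all genes did.

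The decline covered every complex. All 37 complex I subunits fell with ARi_NOTCHi, YAPi_NOTCHi and COMBO (medians -0.62, -0.61 and -0.66), against 35 with ARi, 33 with YAPi and 32 with NOTCHi. All 8 complex III genes fell in each of these comparisons but NOTCHi, where 7 fell and 1 rose, and their median with COMBO was -0.97. Of 17 complex V genes 16 fell with COMBO (median -0.85), and of 13 complex IV genes 11 fell and 1 rose (median -0.76). All 4 complex II genes fell with COMBO. Of 8 complex I assembly factors 6 fell and 1 rose.

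**Figure D2:**
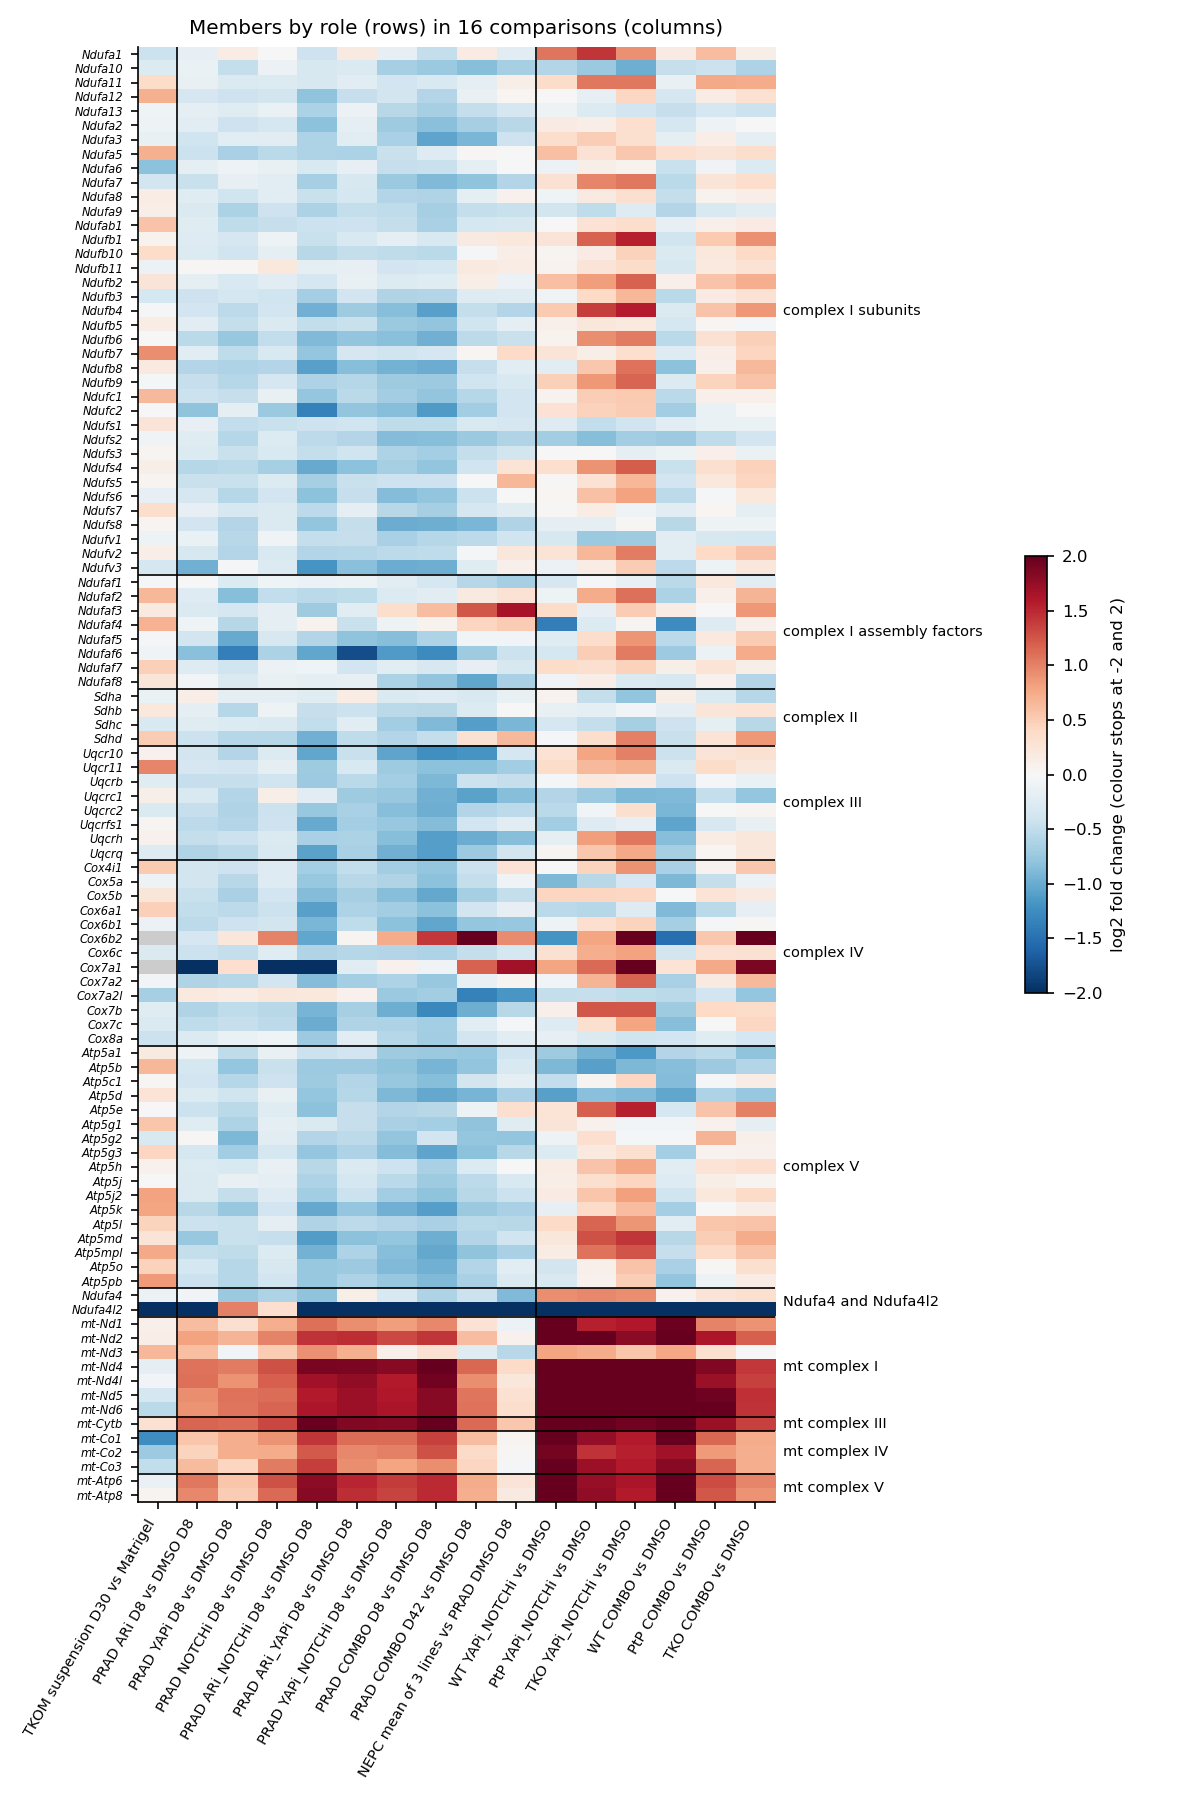
Log2 fold change of the nuclear members other than Cox6a2, pseudogene names and near copies, and of the 13 mitochondrial members (rows, by role) in 16 comparisons (columns), with colours stopping at 2 in either direction and grey for members not tested. The nuclear rows are mostly below 0 in the PRAD day 8 columns and of both signs in the TKO and PtP columns, and the mitochondrial rows are above 0 in all treated day 8 columns but for single genes such as mt-Nd3.

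Ndufc2, an accessory subunit of the complex I membrane arm, had 46.9, 46.3 and 50.8 CPM with COMBO and 107, 107 and 101 CPM with DMSO, a log2 fold change of -1.13 ± 0.046 (SE). It was among the members that fell furthest with ARi (-0.81), NOTCHi (-0.75) and ARi_NOTCHi (-1.36) as well. Cox7b, a small subunit of complex IV, had 93.1, 91.3 and 95.1 CPM with COMBO and 231, 222 and 231 CPM with DMSO (-1.29 ± 0.032). Uqcr10, a small subunit of complex III, had 66.5, 64.7 and 66.4 CPM with COMBO, against 147, 158 and 155 CPM with DMSO (-1.22 ± 0.050). The COMBO libraries lay below the DMSO libraries for all 3 genes. Ndufv3, a small subunit of the NADH-binding module of complex I, fell with ARi (-0.97), ARi_NOTCHi (-1.18), ARi_YAPi (-0.84) and YAPi_NOTCHi (-0.99). Atp5b, the catalytic beta subunit of complex V, fell by 0.77 with YAPi, and Ndufaf2, a complex I assembly factor, fell by 0.85.

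Core and widely expressed subunits fell as well. With COMBO, Ndufs1, which carries iron-sulfur clusters, had a log2 fold change of -0.51 ± 0.037, Ndufv1, which binds NADH, -0.58 ± 0.046 and Ndufab1, the mitochondrial acyl carrier protein, -0.65 ± 0.073. Cox4i1 and Cox5a, nuclear subunits around the catalytic core of complex IV, fell by 0.78 and 0.82, and Cox8a by 0.70. Uqcrfs1, the Rieske iron-sulfur protein of complex III, fell by 0.87. Of the complex II genes, the flavoprotein Sdha had -0.25, the iron-sulfur protein Sdhb -0.56, and the membrane anchors Sdhc and Sdhd -0.88 and -0.48.

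A few nuclear members went the other way. Cox7a2l, an assembly factor that joins complex III to complex IV, had 254, 259 and 255 CPM with ARi, 255, 249.6 and 239 with YAPi, 259, 254 and 269.5 with NOTCHi and 222, 223 and 223 with DMSO, and rose with each of the 3 (log2 fold changes 0.20, 0.15 and 0.23). No library of these 3 groups overlapped with DMSO. With YAPi_NOTCHi it had 135, 136 and 129.6 CPM and with COMBO 137, 140.4 and 136 CPM, below all DMSO libraries (log2 fold changes -0.74 and -0.69). Ndufaf3, a complex I assembly factor, rose with YAPi_NOTCHi (0.35) and COMBO (0.61 ± 0.066) and fell with ARi (-0.29) and YAPi (-0.34). In GENCODE M21 it overlaps Impdh2 on the other strand, and no source used here says whether counting used strand, so reads of the pair cannot be told apart. Sdha rose with ARi (0.13) and ARi_YAPi (0.15).

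Among the mitochondrial members the size of the rise differed by gene. With COMBO on day 8, mt-Nd4, a proton-pumping subunit of complex I, had 3482, 3418 and 3559 CPM, against 888, 811 and 847 CPM with DMSO, a log2 fold change of 2.04 ± 0.046. mt-Cytb, cytochrome b of complex III, had 4499, 4435 and 4576 CPM with COMBO and 1163, 1069 and 1089.7 CPM with DMSO (2.02 ± 0.037). Libraries of the 2 groups did not overlap for either gene. mt-Nd3, a small complex I subunit, had 252, 268 and 281 CPM with COMBO and 242, 205 and 201 CPM with DMSO (0.31 ± 0.052), the smallest change among the 13. With YAPi and YAPi_NOTCHi mt-Nd3 did not pass the test (log2 fold changes -0.059 and 0.10). It did pass with YAPi without YAPi replicate 3 (-0.12), and with YAPi_NOTCHi without DMSO replicate 1 (0.20) or YAPi_NOTCHi replicate 3 (0.13). The other complex I genes of this genome had 0.96 (mt-Nd1), 1.42 (mt-Nd2), 1.92 (mt-Nd4l), 1.82 (mt-Nd5) and 1.82 (mt-Nd6) with COMBO. The catalytic core genes of complex IV had 1.37 (mt-Co1), 1.28 (mt-Co2) and 0.93 (mt-Co3), and the complex V genes 1.5 (mt-Atp6) and 1.5 (mt-Atp8). mt-Nd5 and mt-Nd6 lie on opposite strands and overlap, as do mt-Atp8 with mt-Atp6 and mt-Nd4l with mt-Nd4 on 1 strand, so their counts may share reads.

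The ribosomal RNA genes of the same genome, which are no members and whose transcripts lie outside the protein-coding set, did not rise with them throughout. mt-Rnr1 and mt-Rnr2 had log2 fold changes of 0.076 and -0.16 with COMBO, neither past the test, and -0.69 and -0.30 with ARi, of which the first passed. With YAPi mt-Rnr1 rose (0.45) and mt-Rnr2 did not pass (0.13). polyA selection is meant to leave ribosomal RNA out, so their counts are what remained of it.

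**Figure D3:**
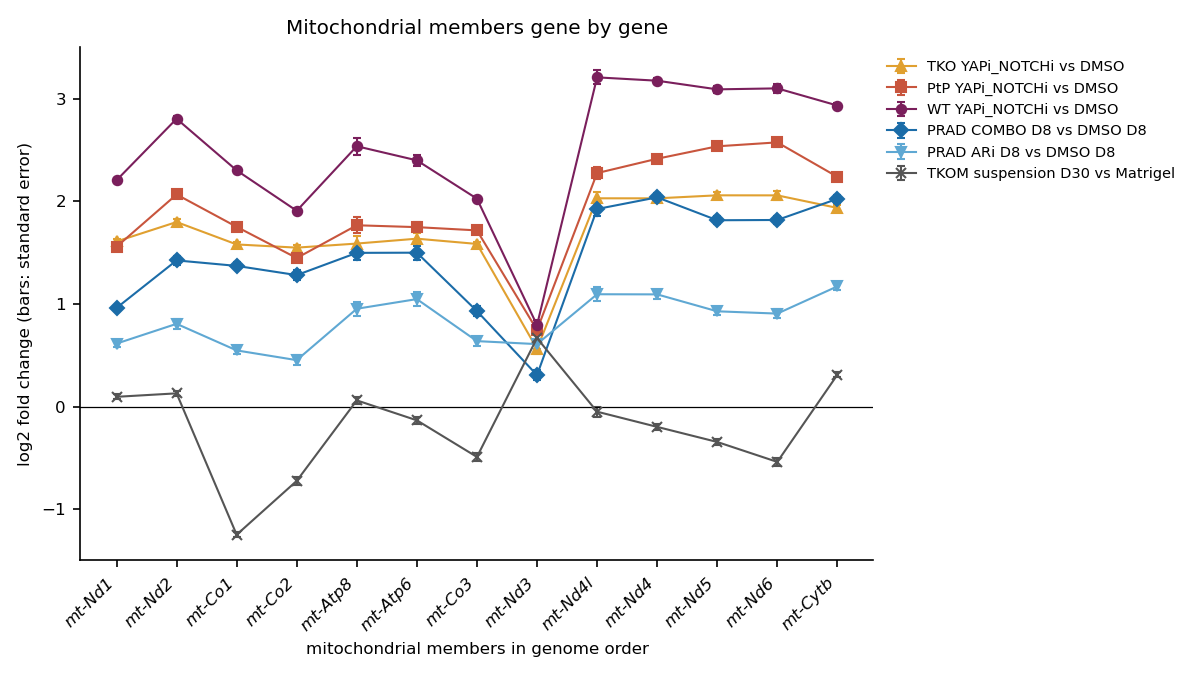
Log2 fold change with its standard error for the 13 mitochondrial members in genome order, in 6 comparisons. mt-Nd3 is the lowest of the 13 with YAPi_NOTCHi in each genotype and with COMBO in PRAD, mt-Nd4 and mt-Cytb are among the highest there, and mt-Co1 is the lowest in TKOM suspension culture.

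Among the members tested in PRAD organoids with ARi, a pair of agents or COMBO, the log2 fold change furthest from 0 was that of Ndufa4l2, a paralog that can take the place of Ndufa4 and is known as a target of hypoxia-inducible factor. It had 2.51, 1.73 and 2.84 CPM with ARi, 246, 243 and 209 with YAPi, 145, 151 and 142 with NOTCHi and 107, 122 and 119.7 with DMSO. ARi libraries lay far below DMSO, and YAPi and NOTCHi libraries lay above it (log2 fold changes -5.63 ± 0.10, 1.00 ± 0.062 and 0.33 ± 0.063). With 2 agents it had 0.540, 0.568 and 0.394 CPM (ARi_NOTCHi), 1.46, 1.54 and 1.51 CPM (ARi_YAPi) and 2.73, 3.52 and 2.69 CPM (YAPi_NOTCHi), all far below DMSO although neither YAPi nor NOTCHi alone lowered it. With COMBO it had 0.0679, 0.270 and 0.139 CPM on day 8 and 0.129, 0.127 and 0.107 on day 42, which are 16 and 11 counts over the 3 libraries, or 0.137% of the DMSO level on day 8 (95% exact Poisson interval 0.0781 to 0.222%, counting error only) and 0.104% on day 42. The NEPC lines had 18, 11 and 20 counts. The gene overlaps Shmt2 on the other strand in GENCODE M21, so its counts may hold reads of that gene where counting ignored strand.

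Ndufa4, a subunit now assigned to complex IV, did not mirror its paralog. It had 153, 146 and 137 CPM with YAPi, 255, 278 and 260.0 with ARi_YAPi and 244, 242 and 247 with DMSO. It fell with YAPi (-0.75 ± 0.034), NOTCHi (-0.62) and COMBO (-0.62) and did not pass the test with ARi (-0.055). Its 0.11 with ARi_YAPi passed, but not without ARi_YAPi replicate 2 (0.074) or with scaling computed without mitochondrial genes (0.063). A pair of tissue-specific complex IV isoforms also moved at low levels. Cox7a1, the heart and muscle form, had 0.332, 0.0515 and 0.0413 CPM with NOTCHi and 1.15, 0.832 and 1.16 CPM with DMSO (-2.80 ± 0.46). The NOTCHi level rests on 10 counts over 3 libraries, most of them in replicate 1, and without that replicate the log2 fold change of Cox7a1 was -4.40. Cox6b2, the testis form, had 0.917, 0.629 and 0.944 CPM with COMBO and 0.307, 0.394 and 0.223 CPM with DMSO (1.41 ± 0.35).

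**Figure D4:**
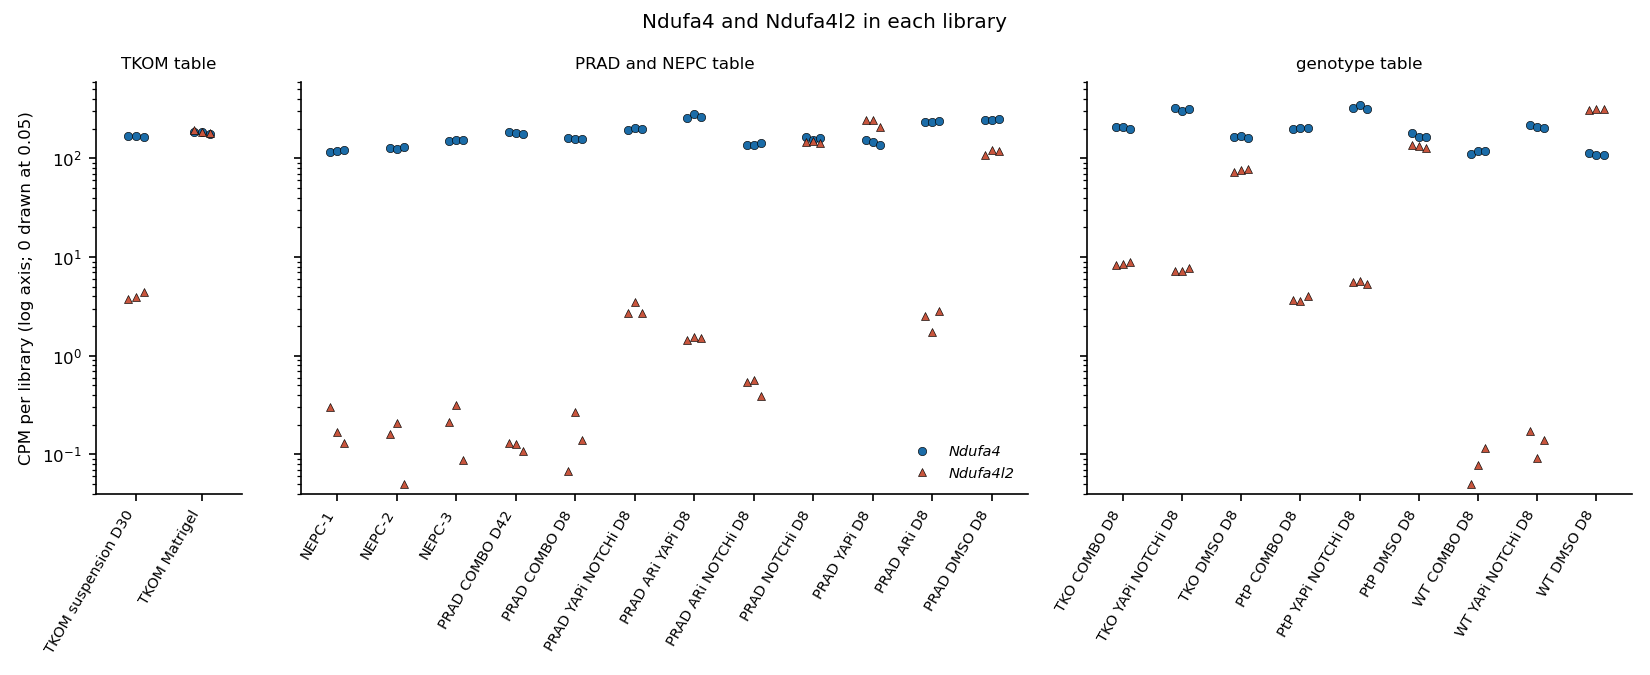
CPM of Ndufa4 and Ndufa4l2 in each library on a log axis, with 0 drawn at 0.05. Ndufa4l2 lies between 72.5 and 314 CPM in DMSO groups, above DMSO with YAPi or NOTCHi alone, and under 10 CPM in every group with ARi, 2 agents or COMBO, in the NEPC lines and in TKOM suspension culture, while Ndufa4 stays between 107 and 343 CPM.

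Other mitochondrial genes, taken as lists by function, mostly fell with the nuclear members. With COMBO on day 8, 12 of 13 citrate cycle genes fell and 1 rose (median -0.59), 10 of 11 mitochondrial mass genes fell (median -0.73), and 12 of 14 electron carrier and coenzyme Q genes fell and 2 rose (median -0.51), against a median of 0.026 over all genes tested. Of all genes tested 38.7% fell and 41.1% rose. Cs, citrate synthase, had a log2 fold change of -0.82, and Tomm20, an import receptor of the outer membrane, -0.60. Of 18 genes for mitochondrial transcription, replication and RNA 12 fell and 1 rose, among them Tfam, which packages and transcribes the organelle genome (-0.29). Polrmt, its RNA polymerase, did not pass the test (-0.10). Of 11 regulators of mitochondrial biogenesis 6 fell and 4 rose, with -1.18 for Myc. Ppargc1a, a coactivator of respiratory genes, had 0.22 and passed the test, but not without COMBO replicate 1 or DMSO replicate 3 (0.18 in either case).

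Coq8a, an atypical kinase needed for coenzyme Q synthesis, went against its list. It had 56.7, 59.7 and 59.6 CPM with COMBO and 7.69, 7.88 and 7.45 CPM with DMSO, and it rose with each agent and pair (log2 fold changes 1.95 with ARi, 1.23 with YAPi, 2.50 with NOTCHi and 3.66 with ARi_NOTCHi). Pdk1 and Higd1a, a kinase that inhibits pyruvate dehydrogenase and a complex IV factor, both known hypoxia targets, had log2 fold changes of -1.45 and -1.83 with ARi, -2.31 and -2.01 with YAPi_NOTCHi and -2.61 and -2.27 with COMBO. With YAPi alone neither passed the test (0.042 and 0.054), though both did with DESeq2's size factors in edgeR (0.10 and 0.11), and with NOTCHi both fell (-0.66 and -0.71).

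Markers of other cell states moved with these changes. The summed level of 8 neuroendocrine markers was 2925 to 2981 CPM with COMBO on day 8, 2066 to 2090.4 with YAPi_NOTCHi and 56.5 to 61.7 with DMSO (where Foxa2 was at 0), and that of 6 basal markers was 9583 to 9804, 11606 to 12340.4 and 15964 to 16685 CPM. With ARi_NOTCHi, where 94 nuclear members fell, the basal sum was 31566 to 31916 CPM and the neuroendocrine sum 417 to 429 CPM. Their part in the results was not tested. The 2 fibroblast markers used, Dcn and Pdgfra, summed to 1004 to 1039 CPM with ARi_NOTCHi, 166 to 171 with COMBO and 82.1 to 86.7 with DMSO.

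Pairs were set against the sum of their single agents on the log2 scale, so that a positive value means a level above that sum. For ARi with YAPi, 79 nuclear members were above the sum and 3 below (median 0.34), where 19.2% and 17.4% of all genes were above and below, and 0 mitochondrial members were above (1 without DMSO replicate 2 or 3 or YAPi replicate 3) and 6 below. All 8 complex III genes and 31 of 37 complex I subunits were above the sum, so the pair lowered them by less than the single falls add up to. For YAPi with NOTCHi, 44 nuclear members were above and 15 below (median 0.13), where 28.2% and 30.8% of all genes were, but with DESeq2's size factors in edgeR the counts were 28 above and 25 below, and with DESeq2 28 above and 24 below. All 13 mitochondrial members were below the sum (median -0.49). For ARi with NOTCHi, 12 nuclear members were above and 20 below (median -0.0034), where 18.7% and 20.6% of all genes were, against 4 above and 34 below with DESeq2's size factors in edgeR and with DESeq2 and 9 above and 30 below in a fit of those 4 groups alone. Of the mitochondrial members 11 were below the sum and 0 above (median -0.36).

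Single members stood out in these terms. For YAPi with NOTCHi, Ndufa4l2 had -6.62 ± 0.12, with a rise under each agent alone and a fall under the pair, and Cox7a2l had -1.12 ± 0.041 with the same pattern. Ndufa4 and Ndufaf2 had 1.06 ± 0.048 and 1.06 ± 0.14, and Ndufaf2 had -0.85 with YAPi, -0.49 with NOTCHi and -0.28 with the pair. Ndufa4 had 0.92 for ARi with YAPi as well, where the pair had the higher level. COMBO set against YAPi_NOTCHi on day 8 gave 4 nuclear members that rose and 37 that fell (median -0.10) and 10 mitochondrial members that rose and 0 that fell (median 0.19), where 20.6% and 21.9% of all genes rose and fell. Of 17 complex V genes 10 fell, and of 37 complex I subunits 6.

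On day 42 of COMBO the nuclear sum lay between those of day 8 of COMBO and DMSO, and the mitochondrial sum did so as well. Against day 8 of COMBO, 79 nuclear members rose and 6 fell (median 0.34) and all 13 mitochondrial members fell (median -0.76), where 34.9% and 34.8% of all genes rose and fell. Against DMSO on day 8, 10 nuclear members rose and 79 fell (median -0.45) and 12 mitochondrial members rose and 1 fell, where 41.2% and 43.3% of all genes rose and fell. Day and treatment differ together here and cannot be told apart. Complex II split: Sdhd had 248, 249 and 255 CPM on day 42 and 149, 143 and 145 CPM on day 8 of COMBO (0.79 ± 0.028), whereas Sdhc had 72.6, 76.2 and 75.5 CPM on day 42 and 92.8, 87.3 and 81.8 CPM on day 8 (-0.22 ± 0.044). The 2 groups did not overlap for either anchor subunit. Cox7a2l fell further, to 85.8, 86.8 and 90.5 CPM (-0.65 ± 0.030 against day 8 of COMBO), and Cox6b2 had 2.95, 2.38 and 2.96 CPM on day 42 and 0.917, 0.629 and 0.944 on day 8 (1.73 ± 0.26). The neuroendocrine marker sum was 5882 to 6005 CPM and the basal sum 178 to 180.0 CPM on day 42, against 2925 to 2981 and 9583 to 9804 CPM on day 8, and no marker was at 0. Their part in the result was not tested.

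The 3 NEPC lines, averaged with equal weight, had 18 nuclear members higher and 67 lower than PRAD DMSO (median -0.30), where 42% and 43.8% of all genes were higher and lower. Of the mitochondrial members 8 were higher and 2 lower (median 0.17), a split that was 10 and 1 with DESeq2's size factors, with DESeq2 and in a fit of these groups alone, and 6 and 3 with scaling computed without mitochondrial genes. All 8 complex III genes and 15 of 17 complex V genes were lower. These calls rest on TMM scaling. Per raw library total the mean nuclear sum was 12467, 11218 and 13181 CPM in NEPC-1, NEPC-2 and NEPC-3. In PRAD DMSO it was 12511 CPM, so on that scale NEPC-3 lay above PRAD DMSO and NEPC-1 close to it. Against day 42 of COMBO, 66 nuclear members were higher and 5 lower (median 0.19) and all 13 mitochondrial members were lower (median -0.55), where 33.2% and 31.7% of all genes were higher and lower. In both comparisons the source differs, and no day or agent is given for the lines, so source, day and treatment cannot be told apart.

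Ndufaf3 had 64.2, 67.5 and 69.4 CPM in NEPC-1, 65.3, 65.3 and 64.5 in NEPC-2, 72.5, 66.1 and 61.3 in NEPC-3 and 20.6, 21.7 and 21.4 in PRAD DMSO. All 9 NEPC libraries lay above the PRAD DMSO libraries (log2 fold change 1.64 ± 0.055). Sdhd was higher (0.65) and Sdhc lower (-0.92) in the lines, as on day 42 of COMBO. Cox7a2l (-1.16) and Ndufa4 (-0.89) were lower. Cox7a1 had 3.82, 5.05 and 5.57 CPM in NEPC-1, 2.30, 3.32 and 2.76 in NEPC-2, 2.57, 3.16 and 2.92 in NEPC-3 and 1.15, 0.832 and 1.16 in PRAD DMSO (1.68 ± 0.23).

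The lines differed among themselves, each set here against the mean of the other two. In NEPC-1 all 13 mitochondrial members were lower (median -0.60) and in NEPC-2 all 13 were higher (median 0.53). In NEPC-3 4 were higher and 2 lower, a split that was 7 and 2 in a fit of the 3 lines alone, 6 and 1 without its replicate 1 and 3 and 4 without its replicate 3. Of the nuclear members 33, 9 and 37 were higher and 23, 51 and 8 lower in NEPC-1, NEPC-2 and NEPC-3, where 30.9% and 25.7%, 31.8% and 27.6% and 27.2% and 33.2% of all genes were higher and lower in the same order of lines. Ndufs5, a complex I subunit, had 35.3, 38.3 and 34.6 CPM in NEPC-1, 29.3, 32.3 and 29.7 in NEPC-2, 114, 107 and 108 in NEPC-3 and 31.8, 31.3 and 30.7 in PRAD DMSO, and its higher mean over the lines (0.66) rests on NEPC-3, whose libraries alone lay far above the others. Its retrocopy Ndufs5-ps had 53.4, 53.5 and 54.5 CPM in NEPC-3 and 12.5, 13.8 and 13.9 CPM in PRAD DMSO, and reads of the pair may have been split between them. Cox6b2 had 2.52, 1.82 and 1.59 CPM in NEPC-2, 0.181, 0.126 and 0.145 in NEPC-3 and 0.670, 0.775 and 0.684 in NEPC-1.

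In TKOM organoids, suspension culture was set against Matrigel, a comparison of growth with and without an embedding matrix in which the day differs or is not given. Of 101 nuclear members 45 rose and 26 fell (median 0.075), and of 13 mitochondrial members 4 rose and 7 fell (median -0.13), where 38.3% of all 15733 genes tested rose and 38.9% fell (median -0.0044). The roles split: 12 of 17 complex V genes rose and 0 fell (median 0.43), 5 of 8 assembly factors of complex I rose and 0 fell, and of 11 complex IV genes tested 3 rose and 7 fell (median -0.11). Of 37 complex I subunits 16 rose and 10 fell.

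Uqcr11, a small subunit of complex III, had 169, 168 and 158 CPM in suspension and 92.3, 80.9 and 77.9 CPM in Matrigel (0.98 ± 0.049), and Ndufb7, a complex I membrane arm subunit, had 100.2, 100.4 and 96.7 CPM in suspension, against 54.7, 52.5 and 49.3 CPM in Matrigel (0.93 ± 0.040). Atp5pb, a stalk subunit of complex V, rose by 0.86, and it may share reads with its retrocopy Atp5pb-ps. Suspension libraries lay above Matrigel libraries for Uqcr11 and Ndufb7. Ndufa4l2 had 3.72, 3.92 and 4.4 CPM in suspension and 194, 183 and 181 CPM in Matrigel (-5.54 ± 0.056), with no overlap. Ndufa6 (-0.82), a complex I accessory subunit, and Cox7a2l (-0.67) fell as well, and Sdhd (0.51) rose while Sdhc (-0.30) fell.

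mt-Co1, the catalytic subunit of complex IV, had 3609, 3638 and 3678 CPM in suspension and 8624, 8589 and 8742 CPM in Matrigel (-1.25 ± 0.023). It made up 31.4% ± 0.123 of the counts of the 13 mitochondrial members in suspension and 49.8% ± 0.609 in Matrigel (SD, n = 3 each), and most of the lower mitochondrial sum lay in this gene. mt-Co2 and mt-Co3 fell too (-0.72 and -0.49), while mt-Cytb (0.31), mt-Nd1 (0.10), mt-Nd2 (0.13) and mt-Nd3 (0.67) rose. Of 18 genes for mitochondrial transcription, replication and RNA 13 rose and 1 fell (median 0.36), among them Polrmt (1.10) and Tfam (0.68), and of 14 electron carrier and coenzyme Q genes 10 rose and 3 fell (median 0.54), with Coq8a at -1.61. Ppargc1a rose by 3.63. Of all genes tested 38.3% rose and 38.9% fell. The summed basal markers were 172 to 181 CPM in suspension and 2892 to 3129.8 CPM in Matrigel, and the 4 neuroendocrine markers used 184 to 190.4 and 3.09 to 3.55 CPM, with Trp63 at 0 in suspension. Their part in the result was not tested.

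The genotypes differed in the mitochondrial set with DMSO alone. PtP organoids had all 13 mitochondrial members higher than WT in DMSO (median 0.76), and 31 nuclear members higher and 25 lower (median 0.036), where 30.1% and 30.8% of all genes were higher and lower. mt-Nd4 had 1168, 1191 and 1179 CPM in PtP and 639.9, 649 and 649 CPM in WT, with no overlap (0.87 ± 0.029). Ndufa4 had 179, 166 and 164 CPM in PtP and 113, 107 and 109 CPM in WT (0.63 ± 0.037), and Ndufa4l2 had 136, 134 and 126 CPM in PtP, against 309, 313 and 314 CPM in WT (-1.24 ± 0.030). Ppargc1a had 8.86, 11.7 and 11.2 CPM in PtP and 0.316, 0.142 and 0.178 CPM in WT (5.62 ± 0.22). TKO organoids had all 13 mitochondrial members lower than PtP (median -0.29) and 0 nuclear members higher and 36 lower (median -0.084), where 13.1% and 13.4% of all genes were higher and lower. Without PtP replicate 1 or replicate 2 the number of lower nuclear members was 21 or 23.

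All 13 mitochondrial members rose with YAPi_NOTCHi in every genotype. The medians were 1.64 in TKO, 1.77 in PtP and 2.54 in WT, where the share of all genes that rose was 45.7%, 44.9% and 45.5%. mt-Nd4 had 3931, 4038 and 3858 CPM in TKO, 6380.4, 6150.1 and 6335 in PtP and 5705, 5800.0 and 5994 in WT with YAPi_NOTCHi, against 969, 924 and 1006 in TKO, 1168, 1191 and 1179 in PtP and 639.9, 649 and 649 in WT with DMSO. Log2 fold changes were 2.03 ± 0.029, 2.41 ± 0.029 and 3.18 ± 0.030 in TKO, PtP and WT. mt-Nd3 rose least among the 13 in each (0.56, 0.75 and 0.79 in TKO, PtP and WT). The gene mt-Rnr2, no member, had 0.62, 0.67 and 0.53 in the same order.

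The nuclear members split by genotype. With YAPi_NOTCHi 75 of 104 rose and 21 fell in TKO (median 0.51), 67 rose and 25 fell in PtP (median 0.31), and 34 rose and 39 fell in WT (median -0.0055). Of all 18430 genes tested, 45.7% and 40.6% rose and fell in TKO, 44.9% and 40.6% in PtP and 45.5% and 40.2% in WT. Of 13 complex IV genes 9 rose in TKO, 8 in PtP and 3 in WT, and of 37 complex I subunits 27, 28 and 15 rose in TKO, PtP and WT. The difference between genotypes was tested as such: the YAPi_NOTCHi effect was higher in TKO than in PtP for 57 nuclear members and lower for 11 (median 0.20), where 24.2% and 28.4% of all genes were, and higher in PtP than in WT for 64 and lower for 15 (median 0.37), where 27% and 30.4% of all genes were. For mitochondrial members the effect was lower in PtP than in WT for 12 and higher for 0 (median -0.65), and lower in TKO than in PtP for 9 and higher for 1.

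Ndufb4, a complex I membrane arm subunit, had 35.4, 33.3 and 38.8 CPM with YAPi_NOTCHi and 11.1, 11.8 and 13.5 CPM with DMSO in TKO (1.57 ± 0.066), and it rose by 1.38 in PtP and 0.52 in WT. Its near copy Ndufb4c rose by 1.73 in TKO and 1.51 in PtP, and reads of the pair may have been split between them. Ndufb1 and Atp5e, small subunits of complexes I and V, rose by 1.55 and 1.55 in TKO. Atp5a1, the alpha subunit of complex V, went the other way, with 495, 483 and 500.4 CPM with YAPi_NOTCHi and 1068, 1101 and 1093 CPM with DMSO in TKO (-1.14 ± 0.020), and Ndufa10, a large accessory subunit of complex I, fell by 0.98. No libraries overlapped for Ndufb4, Atp5a1 or Ndufa10. Atp5a1 overlaps Haus1 on the other strand in GENCODE M21. Atp5b fell in TKO (-0.90), PtP (-1.09) and WT (-0.89). Sdha fell in TKO (-0.79) and PtP (-0.48), and its 0.065 in WT passed the test, but not without DMSO replicate 3 (0.060) or YAPi_NOTCHi replicate 2 (0.060) or 3 (0.057). Sdhd rose in TKO (1.01) and PtP (0.36) and did not pass the test in WT (-0.032).

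In WT the members that rose furthest with YAPi_NOTCHi were Ndufa1, with 65.3, 65.6 and 63.4 CPM with YAPi_NOTCHi, against 32.1, 29.4 and 30.8 CPM with DMSO (1.08 ± 0.041), and Ndufa4 (0.94). Ndufaf4, a complex I assembly factor, had 22.1, 23.6 and 21.8 CPM with YAPi_NOTCHi, against 62.5, 55.4 and 60.6 CPM with DMSO (-1.39 ± 0.054), and Atp5d, the delta subunit of complex V, fell by 1.09. Libraries did not overlap for Ndufa1 or Ndufaf4. Ndufa4 rose by log2 values close to this in PtP (0.96) and TKO (0.92), and its effect did not pass the test of a difference between PtP and WT (0.023 ± 0.048) or TKO and PtP (-0.035 ± 0.046). Cox7b had an effect 1.15 higher in PtP than in WT, and Ndufaf4 one 1.11 higher.

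Ndufa4l2 fell in all 3 genotypes, with the largest difference in WT. With YAPi_NOTCHi it had 7.16, 7.22 and 7.82 CPM in TKO, 5.52, 5.67 and 5.34 in PtP and 0.172, 0.0915 and 0.139 in WT, against 72.5, 76.8 and 78.0 in TKO, 136, 134 and 126 in PtP and 309, 313 and 314 in WT with DMSO. Log2 fold changes were -3.36 ± 0.053 in TKO, -4.58 ± 0.052 in PtP and -11.24 in WT. The WT level with YAPi_NOTCHi is 11 counts over 3 libraries, 0.0431% of the DMSO level (95% exact Poisson interval 0.0215 to 0.0770%, counting error only). The effect was 6.67 higher on the log2 scale in PtP than in WT and 1.22 ± 0.094 higher in TKO than in PtP. With COMBO the differences were 6.98 and 1.97, with 5 counts in WT.

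With COMBO most nuclear members fell in WT, while PtP and TKO had members of both directions. In TKO 62 rose and 27 fell (median 0.20), in PtP 49 rose and 25 fell (median 0.10), and in WT 4 rose and 88 fell (median -0.45), where 46.2% and 41%, 44.8% and 40.2% and 44.9% and 40.8% of all genes rose and fell in TKO, PtP and WT. All 8 complex III genes and 34 of 37 complex I subunits fell in WT. Set against WT, the COMBO effect in PtP was higher for 88 nuclear members and lower for 1 (2 without WT COMBO replicate 1, median 0.55), where 29.4% and 30.4% of all genes were, and lower for all 13 mitochondrial members (median -0.97). Set against PtP, the effect in TKO was higher for 44 nuclear members and lower for 17 (median 0.10), where 25.7% and 31.2% of all genes were, and lower for all 13 mitochondrial members (median -0.36). Mitochondrial members rose with COMBO in all but 1 case: 12 of 13 in TKO (median 0.97), 13 in PtP (1.30) and 13 in WT (2.33), mt-Nd3 in TKO being the exception (-0.0015 ± 0.047). The neuroendocrine marker sum was 2027 to 2159, 726 to 741 and 520.3 to 568 CPM with COMBO in TKO, PtP and WT, the basal sum 3698 to 3825, 10979.7 to 11353 and 14762 to 15192 CPM, and the sum of Dcn and Pdgfra 19.5 to 22.1, 49.5 to 53.7 and 179.5 to 186 CPM. With DMSO the neuroendocrine sum was 35.7 to 37, 35.4 to 43.1 and 4.46 to 6.23 CPM, the basal sum 9528 to 9576, 11081 to 11203 and 21159 to 21360.4 CPM, and the sum of Dcn and Pdgfra 178 to 188, 159.6 to 161 and 5.78 to 6.23 CPM. Their part in the COMBO results was not tested.

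Most nuclear members were lower with COMBO than with YAPi_NOTCHi in each genotype. 73 nuclear members fell and 16 rose in TKO (median -0.32), 59 fell and 18 rose in PtP (median -0.21), and 84 fell and 4 rose in WT (median -0.40), where 27.6% and 37.4%, 25.4% and 34.4%, and 28.3% and 34.4% of all genes fell and rose in TKO, PtP and WT. The WT count of rises was 2 without COMBO replicate 2. Atp5a1 rose in all 3 comparisons (0.33 in TKO, 0.43 in PtP and 0.12 in WT), and Ndufv1 rose in TKO (0.35) and PtP (0.41). Ndufa1 fell in all 3 (-0.79, -0.82 and -0.92 in TKO, PtP and WT), as did Ndufa4 (-0.61, -0.71 and -0.86). These comparisons share the YAPi_NOTCHi libraries with the ones above. Their values by transcript length are given below.

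Most citrate cycle genes and most genes of the biogenesis list, which also holds the general regulators Myc and Yy1, fell with YAPi_NOTCHi in each genotype. Of 13 citrate cycle genes 12 fell in TKO, 12 in PtP and 11 in WT (medians -0.55, -0.55 and -0.46), with -1.51, -1.42 and -1.27 for Cs. Of 11 biogenesis regulators 9 fell in each (medians -0.87, -0.87 and -0.88), with Myc at -2.30, -2.21 and -3.78 in TKO, PtP and WT. The 32 assembly factors of complexes II to V moved in both directions, with 19 that rose and 9 that fell in TKO, 17 and 8 in PtP and 10 and 11 in WT. Of all genes tested, 45.7% and 40.6% rose and fell in TKO, 44.9% and 40.6% in PtP and 45.5% and 40.2% in WT. Ppargc1a rose in PtP (1.02) and in WT (6.30), where it had 16.1, 17.4 and 16.9 CPM with YAPi_NOTCHi and 0.316, 0.142 and 0.178 CPM with DMSO, and did not pass the test in TKO (-0.076). Coq8a rose in all 3 (1.58, 2.35 and 3.42). Fastkd5, needed for processing of mitochondrial transcripts, fell by 2.54 in WT. Medians over all genes were 0.10, 0.087 and 0.11 in TKO, PtP and WT. The neuroendocrine marker sum was 1249 to 1301, 276 to 295 and 268 to 281 CPM with YAPi_NOTCHi in TKO, PtP and WT, against 35.7 to 37, 35.4 to 43.1 and 4.46 to 6.23 CPM with DMSO, and the basal sum 2990.1 to 3028, 7363 to 7515 and 11987 to 12341 against 9528 to 9576, 11081 to 11203 and 21159 to 21360.4 CPM. The fibroblast markers Dcn and Pdgfra summed to 39.9 to 42.3, 52.9 to 57.0 and 344 to 348 CPM with YAPi_NOTCHi in TKO, PtP and WT, against 178 to 188, 159.6 to 161 and 5.78 to 6.23 CPM with DMSO, so this sum was higher with YAPi_NOTCHi in WT and lower in TKO and PtP. With DMSO, Chga was at 0 in PtP, and Chga, Insm1 and Foxa2 in WT. Their part in the result was not tested.

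With YAPi_NOTCHi the median log2 fold change was higher in short than in long transcripts, among nuclear members in each genotype and among all genes in TKO and PtP but not in WT. The median length over coding transcripts was taken from GENCODE M21, and members without near copies were split at their median of 746 bases. Atp5md, Atp5pb and Ndufb1 had no length under these names there and were left out. With YAPi_NOTCHi in TKO the 43 short members had a median log2 fold change of 0.66 and the 43 long ones 0.056, against 0.53 over 509 short and -0.011 over 13625 long genes of the whole table. In PtP the members had 0.46 and -0.030 and all genes 0.40 and 0.0021. In WT they had 0.071 and -0.14, and all genes 0.051 and 0.088. The 86 members share libraries and are no independent replicates. Across them Pearson's r of the log2 fold change with log2 length was -0.43 in TKO, -0.40 in PtP and -0.13 in WT. Over all genes it was 0.00621, 0.00403 and 0.0741 in TKO, PtP and WT. The members include Ndufa4l2, whose WT level with YAPi_NOTCHi is 11 counts. Spearman's rho, which uses ranks, was -0.44, -0.54 and -0.35 over the members in TKO, PtP and WT. Over all genes it was -0.063, -0.033 and 0.066. With COMBO on day 8 in PRAD organoids the short and long members had -0.79 and -0.69, against -0.62 and 0.094 over all genes. On day 42 of COMBO against DMSO, members had -0.44 and -0.47, and all genes -0.52 and 0.049. For the NEPC lines against PRAD DMSO, members had -0.30 and -0.32, and all genes -0.39 and 0.047. Long members thus lay below long genes in all 3, and short members below short genes with COMBO on day 8 only. Short genes were 517 of 14408 there, and short members 43 of 86, so the shares of all genes given above are those of mostly longer genes. Short and long members had -0.38 and -0.11 in TKO with COMBO set against YAPi_NOTCHi. In PtP they had -0.30 and -0.059, and in WT -0.51 and -0.31. Short and long genes of the whole table had -0.31 and 0.10 in TKO, -0.24 and 0.072 in PtP and -0.31 and 0.078 in WT. Pearson's r with length there was 0.51, 0.54 and 0.56 over the members and 0.22, 0.17 and 0.23 over all genes. The part of transcript length in these results was not tested.

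**Figure D5:**
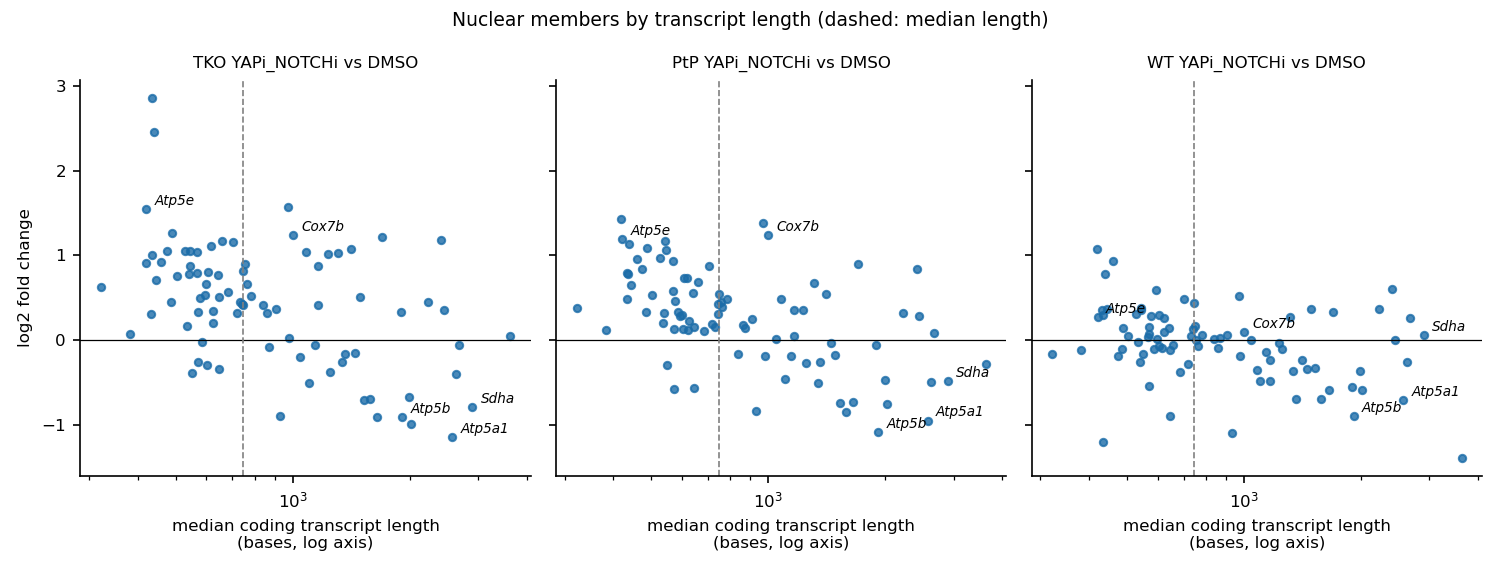
Log2 fold change with YAPi_NOTCHi against DMSO of the nuclear members without near copies that have a length in GENCODE M21, Ndufa4l2 left off the axis, against median coding transcript length (log axis, bases), in TKO, PtP and WT, with a dashed line at the median length. Atp5md, Atp5pb and Ndufb1 have no length and are not shown. Members left of the line lie mostly above 0 in TKO and PtP, and those right of it lie on both sides of 0.

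The nuclear members did not form a single block. Correlated over 12 group means with the mean of the nuclear set, which each member is part of, 47 of the 102 members in the PRAD and NEPC table had a Pearson's r over 0.8 and 3 were negative: Cox6b2, Ndufaf1 and Cox7a2l. In the genotype table, over 9 group means, 57 of 104 had an r over 0.8 and 15 were negative, among them Ndufv1 (-0.47), Sdha (-0.46), Ndufs1, Ndufa10, Atp5a1 and Atp5g2. Ndufv1, Sdha, Ndufs1 and Atp5a1 encode catalytic or core subunits, Ndufa10 an accessory subunit, and Atp5g2 is 1 of 3 genes for the same ring subunit of complex V. Among genes that are no members, those most like the nuclear set over the 12 group means of the PRAD and NEPC table were Gm5436 (r 0.974), Cyc1 (0.958), which encodes cytochrome c1 of complex III and is missed by the naming rule, Tk1 (0.956), Znhit1 (0.954), Psmd14 (0.946), Ufsp2, Mrps34, Psmc3, Uqcc2, a complex III assembly factor, and Acp1 (0.927). These correlations describe group means that share libraries within a table and carry no test.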

How the data were processed

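RNA from 69 libraries of mouse prostate organoids was measured as polyA RNA-seq. The deposited tables hold estimated counts per gene, of which 40.8 to 46.3% per table were not whole within 0.01, so the authors' values were rounded. The submitters' processing notes name build mm10, and the sources used here name no aligner, counter or annotation and no strandedness. Lines with the same gene name were summed, and the 10, 11 and 12 lines without a name (at most 0.0114% of a library) were left out. Over 69 pairs of libraries within groups, chi-square per gene was 1.60 to 24.7, so none agreed within sampling noise. The highest values, 24.7 and 23.3, were those of PRAD NOTCHi replicate 2 against replicates 1 and 3, whose own pair had 2.57. Every other pair had at most 12.0. Over fits with 1 library left out, 76 to 80 nuclear members fell with NOTCHi (79 reported).

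Each table was tested separately with edgeR 4.0.16 in R 4.3.3: TMM scaling, filterByExpr, a model of group means, the quasi-likelihood F-test and Benjamini-Hochberg adjustment over all genes kept (15733, 18483 and 18430), with calls at an adjusted p under 0.05, in 34 comparisons. A standard error is the log2 fold change divided by the root of F. Counts were simulated for PRAD COMBO on day 8 against DMSO with 50 genes changed at each fold. Of these, 84% of genes changed 2-fold and 46% of those changed 1.2-fold were called among 18074 genes. In the real comparison 41.1% of all genes rose and 38.7% fell. The simulated rates thus describe a setting with far fewer changed genes. Alternatives were DESeq2's size factors in edgeR, DESeq2 1.42.0, no filter, scaling without mitochondrial genes, only the groups compared, a replicate block and leaving out each library.

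The members and lists were chosen with earlier results of these data known. Named were the 13 mitochondrial members, the Sdh genes, listed isoforms and core subunits, and in each comparison genes among the 4 largest called rises and the 4 largest called falls of nuclear members whose log2 CPM averaged 3 or more. Lengths and overlaps are from GENCODE M21 (GRCm38) and promoters from RefSeq. The level of 1 marker gene of the lists is not reported here.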

Additional observations from a re-analysis of the deposited data

Results flagged for a closer look

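Effects that differed between genotypes in edgeR's test of the difference itself are listed with their values. For YAPi_NOTCHi set against DMSO, the effect in PtP was higher than in WT for 64 nuclear members and lower for 15, and it was lower for 12 mitochondrial members. In TKO set against PtP the same effect was higher for 57 nuclear members and lower for 11, and for mitochondrial members it was higher for 1 and lower for 9. For COMBO, the effect in PtP was higher than in WT for 88 nuclear members and lower for 1, and it was lower for 13 mitochondrial members. In TKO set against PtP the COMBO effect was higher for 44 nuclear members and lower for 17, and lower for 13 mitochondrial members. Of all genes tested, the YAPi_NOTCHi effect was higher for 27% and lower for 30.4% in PtP against WT. In TKO against PtP the shares were 24.2% and 28.4%. For COMBO they were 29.4% and 30.4% in PtP against WT and 25.7% and 31.2% in TKO against PtP.

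Single members were marked by the same test. The log2 difference of Ndufa4l2 was 6.67 for YAPi_NOTCHi and 6.98 for COMBO in PtP minus WT, and 1.22 and 1.97 for YAPi_NOTCHi and COMBO in TKO minus PtP. Both PtP minus WT values rest on 11 and 5 counts in WT. Cox7b had 1.15 and Ndufaf4 1.11 for YAPi_NOTCHi in PtP minus WT. Comparisons of PtP with WT and of TKO with PtP share the PtP libraries.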

How the results depend on the processing

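Of 942 counts of nuclear or mitochondrial members under an alternative that lead a comparison, 935 lay within 1.5 times the reported count. With DESeq2's size factors in edgeR and with DESeq2, the nuclear members above the sum of YAPi and NOTCHi numbered 28 (44 reported) and those below the sum of ARi and NOTCHi 34 (20 reported). In a fit of the NEPC lines alone, 7 mitochondrial members were higher in NEPC-3 (4 reported). The nuclear members lower in TKO than PtP in DMSO ranged over 21 to 44 with 1 library left out (36 reported). The cause was not tested. Counts that do not lead a comparison moved in 26 of 942 cases: nuclear members that rose with ARi_YAPi were 1 (4 reported) with scaling computed without mitochondrial genes, those that fell on day 42 against day 8 of COMBO were 2 (6 reported) with DESeq2's size factors, and those that rose with COMBO in WT were 7 (4 reported) in a fit of the groups compared. Of 2460 log2 fold changes of named genes 7 lost their call, 9 gained one and none changed sign while called. The median of all genes moved by at most 0.0949 on the log2 scale under DESeq2's size factors, DESeq2, no filter or scaling without mitochondrial genes. Leaving TMM out was tried for summed levels only, not for counts of members or fold changes. It multiplied summed levels by 0.834 to 1.155.

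Replicate numbers did not pair the samples: the correlations of deviations ran from -0.168 to 0.108, and 0 of 22 comparisons of groups had all 3 over 0.1. With a replicate block 95 nuclear members fell and 13 mitochondrial members rose with COMBO on day 8 in PRAD organoids, as without it, and all 136 counts of members stayed within 1.5 times the reported ones.

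Library totals limit members at few counts, such as Ndufa4l2 in COMBO libraries, where only the counting interval bounds the level. Genes annotated on the other strand overlap Ndufaf3, Ndufa4l2, Atp5a1 (Haus1), Ndufs1 (Eef1b2), Cox4i1 (Emc8), Atp5d (Cbarp), Ndufaf2 (Smim15) and other members, and near copies limit Ndufb4, Ndufs5 and Atp5pb. The labels pair no library with a culture.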
